A study of Mus musculus with 6 samples.

Results

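Described here are 10 genes of the NRF2 antioxidant pathway, *Nfe2l2*, *Keap1*, *Bach1*, *Nqo1*, *Hmox1*, *Gclc*, *Gclm*, *Txnrd1*, *Srxn1* and *Sod2*, found by symbol among the 43346 genes of the table of counts. Each symbol occurred once. The 10 genes passed the filter on low counts, so no member was lost before the test. NRF2, the product of *Nfe2l2*, is the transcription factor that switches on antioxidant and detoxification genes. In resting cells, the adaptor protein KEAP1 holds NRF2 and hands it to a ubiquitin ligase for destruction. Oxidants and electrophiles modify KEAP1, NRF2 then enters the nucleus, pairs with a small MAF protein and binds antioxidant response elements, while the heme-binding repressor BACH1 competes for the same elements. Ionizing radiation and senescence are both associated with reactive oxygen species in fibroblasts.

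The genes were measured by RNA-seq in primary mouse adult fibroblasts (MAFs) from the ears of female C57BL6/J mice, in 3 control and 3 senescent samples. Control MAFs were sham irradiated, and senescent MAFs received 20 Gy of X-rays and spent 21 more days in culture. Both groups were wild type, grew at 3% oxygen between passages 3 and 8, and were treated for 2 hours with 100 nM dexamethasone, a glucocorticoid that sets the circadian clocks of cultured cells to one phase. RNA was collected 12 hours later, so each value describes 1 time point after a glucocorticoid that the controls had received as well. The labels do not say whether the replicates came from separate mice or cultures, and the p-values measure the spread between these samples.

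Total counts lay between 50288454 and 82229553 per library. Senescent replicate 3 stood farthest from its group, with root mean square log2 differences over the tested genes of 0.386 and 0.400 from the other senescent libraries, which differed from each other by 0.258. Of 10 fibroblast markers, 3 were higher and 5 lower in senescent cells. Their summed level, most of it *Fn1*, was from 63764 to 65730 CPM (counts scaled to a common library total, with the TMM factors of edgeR) in control and from 47958 to 53450 CPM in senescent libraries. The cell cycle inhibitor *Cdkn1a* rose from 123 ± 2.01 to 620 ± 16.3 CPM (SD, n = 3 per group), and *Lmnb1*, the lamin lost in senescence, fell from 79.4 ± 1.85 to 6.76 ± 0.285 CPM. Summed chondrocyte markers (6 genes) were at 4705 to 5233 CPM in control and 335 to 418 CPM in senescent libraries, with 5 of 5 tested markers lower. Summed macrophage markers (8 genes, none at 0 in every library) were at 8.62 to 9.40 CPM in control and 19.8 to 22.5 CPM in senescent libraries, with 7 of 7 tested markers higher, and summed endothelial markers (6 genes) at 2.43 to 2.86 and 7.53 to 8.34 CPM. In RNA from a whole culture, fewer cells of a type and less RNA per cell cannot be told apart, and the part of any of these marker lists in the values below was not tested.

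NRF2 recognizes a short element near its target genes, so the sequence before the start of each gene was searched for its core, TGACNNNGC, for the AP-1 motif TGANTCA, which meets the core where it reads TGACTCA and a GC follows, and for the E-box CACGTG. The windows came from RefSeq (GRCm38.p6, the assembly that mm10 names), ran from 250 bases before to 50 bases after the start, and were read on both strands. They covered 8 of the 10 genes, all but *Hmox1* and *Gclc*. These genes had 10 windows, because *Txnrd1* has 3 listed starts. The core was found in 4 of the 10 windows, 1 each of *Nfe2l2*, *Srxn1*, *Gclm* and *Txnrd1*, against 12.4% of the 32851 windows of the table, and by gene in 4 of these 8, against 16 of 78 other pathway genes with a window. The AP-1 motif was found in 1 of the 10 windows, that of *Srxn1*, against 7.81% of all windows, and the E-box in 0 of the 10, against 7.15%. The stretches that hold a core or an AP-1 motif before the start are printed below, with the matches in capitals. They read 5′ to 3′ on the strand of the gene. Whether these motifs have a part in the changes of the genes was not tested.
*Nfe2l2*, chr2:75704865-75704913, minus strand, also within an exon of the noncoding gene *E030042O20Rik*: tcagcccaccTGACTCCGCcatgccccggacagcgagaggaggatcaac
*Srxn1*, chr2:152105392-152105515, plus strand: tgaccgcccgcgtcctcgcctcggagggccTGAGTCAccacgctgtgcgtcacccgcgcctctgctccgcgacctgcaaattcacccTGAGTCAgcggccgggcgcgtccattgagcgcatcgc
*Gclm*, chr3:122245393-122245461, plus strand: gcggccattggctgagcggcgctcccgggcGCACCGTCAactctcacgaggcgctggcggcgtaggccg
*Txnrd1*, chr10:82859084-82859152, plus strand: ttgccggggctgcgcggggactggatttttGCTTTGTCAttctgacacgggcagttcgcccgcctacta

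*Srxn1* carried 2 copies of TGAGTCA, beginning 102 and 45 bases before its start, and its core match lay behind the start, from base 29 to base 37. The copy nearer the start is followed by GC, and TGAGTCAGC differs from the core searched for only by a G in place of its C. Variants of the core were not searched, so this site was counted under the AP-1 motif alone. The *Gclm* and *Txnrd1* matches read as the core on the opposite strand and began 134 and 92 bases before the start. The *Txnrd1* match belongs to the start at which the deposited table begins the gene. The *Nqo1*, *Keap1*, *Bach1* and *Sod2* windows held none of the 3 motifs, which says only that these letters are not in these windows.

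Of the 10 genes, 7 were higher in senescent cells when a Benjamini-Hochberg adjusted p below 0.05 was required in the quasi-likelihood test of edgeR, and 3 were lower. Over all 17589 genes tested, 36.2% were called higher and 34.1% lower, so that 70.3% were called in one direction or the other. With a fold change over 2 added to the rule, 5 of the 10 genes were called, against 30.0% of all genes (30.1% where the p was not adjusted). All 5 were higher, against 17.7% of all genes, and 0 were lower, against 12.3%. These 5 were *Hmox1*, *Txnrd1*, *Gclc*, *Srxn1* and *Gclm*, all of them effector genes. The 3 control and the 3 senescent values did not overlap in 10 of the 10 genes, against 75.3% of all genes. The median log2 fold change of the 10 genes was 0.87, and that of all genes tested 0.01.

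**Figure D1:**
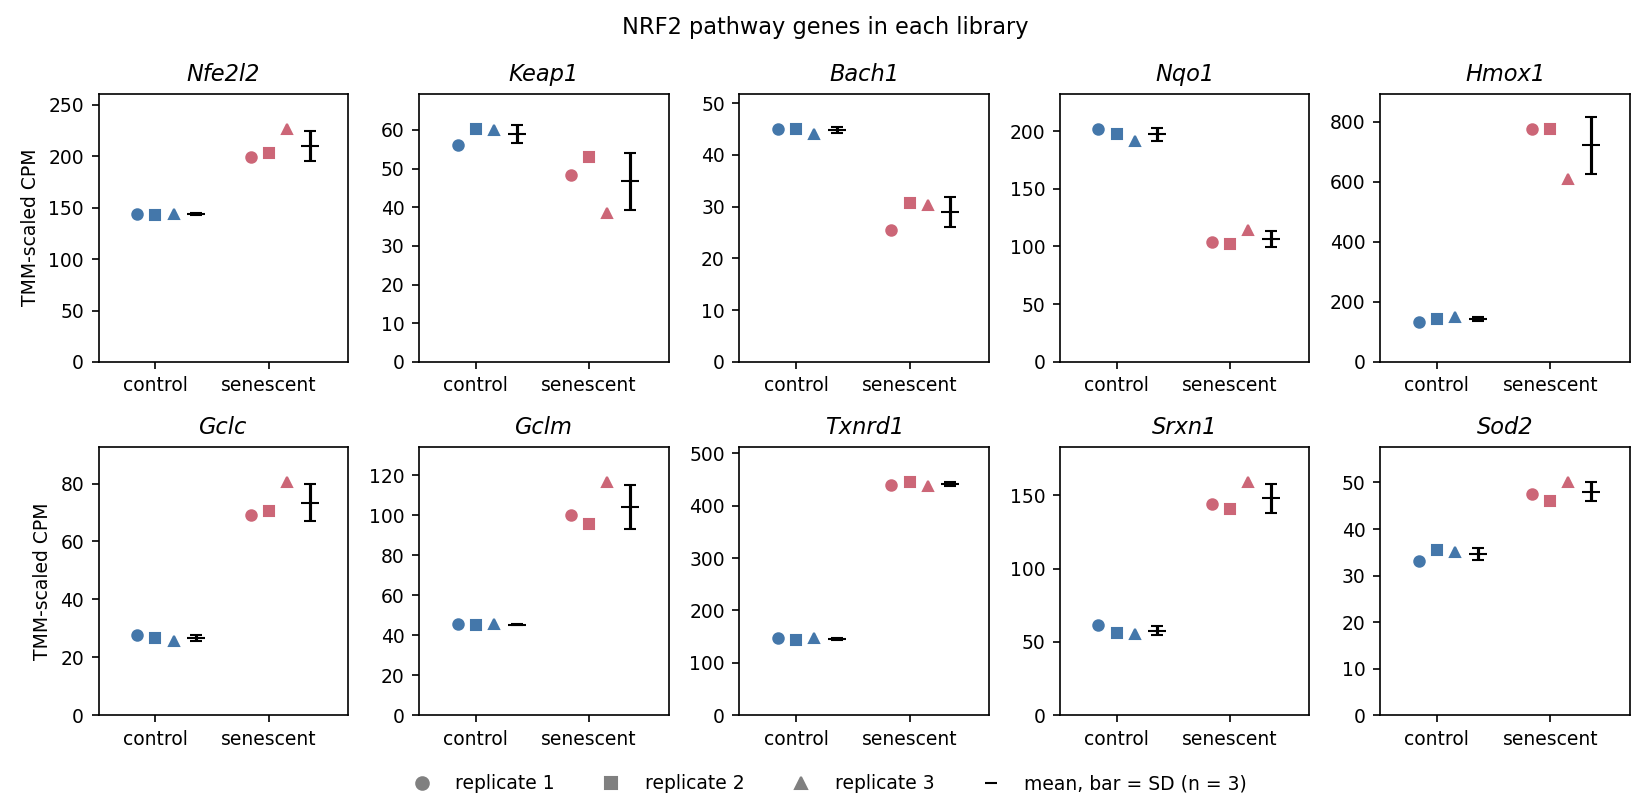
TMM-scaled CPM of each of the 10 genes in each control (blue) and senescent (red) library, with the shape of the symbol giving the replicate number and the mean with its SD in black (n = 3). Hmox1 rises from 142 to 721 CPM on average, Nqo1 falls from 197 to 107 CPM, and in no panel do the groups overlap.

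Of the regulators, the activator comes first. *Nfe2l2* (ENSMUSG00000015839, chromosome 2 from 75675513 to 75704641 in mm10) was at 144, 142 and 144 CPM in control replicates 1, 2 and 3 and at 199, 204 and 227 CPM in senescent replicates 1, 2 and 3. Its control libraries were nearly equal, with a coefficient of variation of 0.648%, and the senescent libraries were all above them with a coefficient of 7.09%. On the log2 scale, *Nfe2l2* rose by 0.55 ± 0.06 (SE), or 1.46-fold (adjusted p = 0.000134, edgeR). NRF2 is regulated largely at the level of its protein, which was not measured here.

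*Keap1*, which encodes the adaptor that marks NRF2 for destruction (ENSMUSG00000003308, chromosome 9 from 21229730 to 21239332), was at 56.2, 60.3 and 60.0 CPM in control and at 48.4, 53.1 and 38.5 CPM in senescent replicates 1, 2 and 3. The groups were separate by a small margin, and the lowest value was that of senescent replicate 3. Its log2 fold change, -0.33 ± 0.11 (SE, adjusted p = 0.0289, edgeR), was the weakest call among the 10 genes. Without senescent replicate 3 it was -0.20 (adjusted p = 0.00167, edgeR). When the GC content of genes was fitted for every library, an alternative chosen after seeing the data and called the GC term below, it was -0.10 (adjusted p = 0.0440, edgeR). The longest *Keap1* transcript holds 58.0% GC, more than 90.9% of the genes tested. Scaling by library size alone, asking for 10 counts or more in each library, and leaving out control replicate 2, control replicate 3 or senescent replicate 1 ended the call (adjusted p from 0.0531 to 0.0850, edgeR). *Keap1* shares exon bases with the noncoding gene *Gm16754*, which had 26 to 117 counts per library.

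*Bach1*, the repressor (ENSMUSG00000025612, chromosome 16 from 87698945 to 87733346), was at 45.1, 45.1 and 44.1 CPM in control and at 25.5, 30.8 and 30.4 CPM in senescent replicates 1, 2 and 3. Each senescent library was well below the control libraries. *Bach1* had a log2 fold change of -0.63 ± 0.08 (SE, adjusted p = 0.000254, edgeR), a level of 0.647 times that of control cells. The transcript of the activator was thus higher and those of both of its antagonists were lower. The call of *Keap1* did not hold in 5 of the 14 alternatives, while that of *Bach1* held in all 14.

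The ratio of the counts of a pair of genes within a library does not depend on how libraries are scaled. It is not free of an effect of GC content that differs between libraries, and the ratios were not refitted with the GC term. With that term, the log2 fold changes were 0.45 for *Nfe2l2*, -0.10 for *Keap1* and -0.73 for *Bach1*, against 0.55, -0.33 and -0.63 without it. The ratio of *Nfe2l2* to *Keap1* counts was 2.57, 2.36 and 2.40 in control and 4.12, 3.84 and 5.90 in senescent replicates 1, 2 and 3. The ratio of *Nfe2l2* to *Bach1* counts was 3.20, 3.16 and 3.27 in control and 7.80, 6.62 and 7.47 in senescent libraries. Both ratios were higher in every senescent than in every control library, with differences of 0.89 and 1.18 on the log2 scale. For each ratio, a two-sided exact permutation test of 3 samples against 3 gave p = 0.1, the smallest value it can give (adjusted p = 0.1 over 3 ratios).

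**Figure D2:**
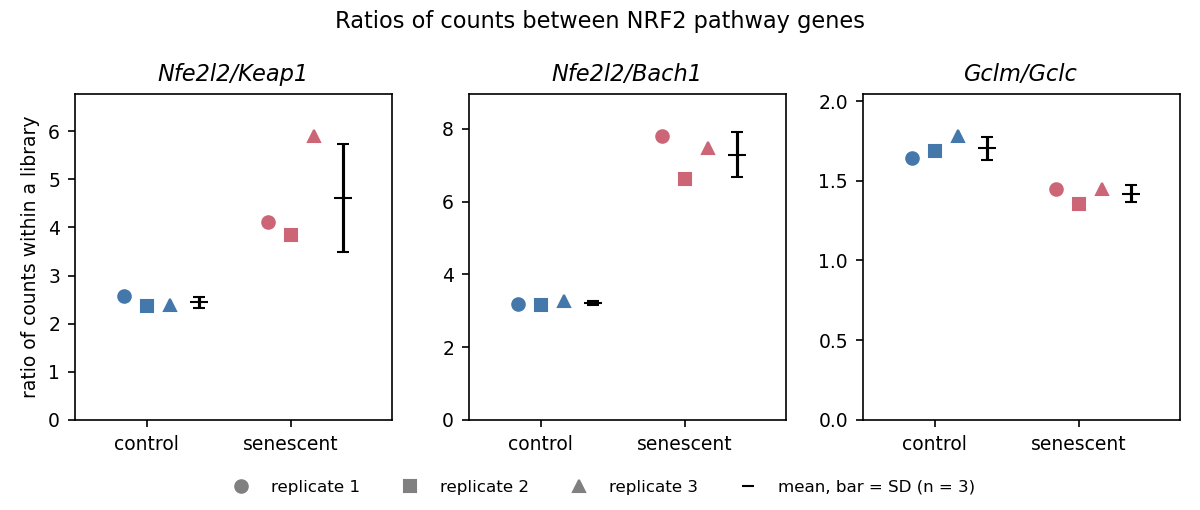
Ratios of raw counts within each library for 3 pairs of genes, with the shape of the symbol giving the replicate number and the mean with its SD in black (n = 3 per group). Nfe2l2/Keap1 and Nfe2l2/Bach1 are higher in each senescent (red) than in each control (blue) library, Gclm/Gclc is lower, and senescent replicate 3 has the highest Nfe2l2/Keap1 ratio at 5.90.

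The largest change of the 10 genes was in *Hmox1*, which encodes heme oxygenase 1, the enzyme that opens heme to biliverdin, iron and carbon monoxide. *Hmox1* (ENSMUSG00000005413, chromosome 8 from 75093591 to 75100596) was at 134, 144 and 148 CPM in control and at 778, 776 and 611 CPM in senescent replicates 1, 2 and 3. Senescent replicates 1 and 2 were close to each other and replicate 3 was lower, yet far above each control library. The rise was 2.34 ± 0.10 on the log2 scale (SE), or 5.07-fold (adjusted p = 6.09e-07, edgeR), and it was 2.46 without senescent replicate 3. By size of change, *Hmox1* exceeded 89.1% of the genes tested. Macrophages are known to express *Hmox1*, and the macrophage markers rose as well, as given above. Their part in the change of *Hmox1* was not tested.

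*Nqo1*, the other classical NRF2 target on chromosome 8 and the only effector gene of the 10 that fell, encodes a quinone reductase that lowers quinones without forming radicals. *Nqo1* (ENSMUSG00000003849, chromosome 8 from 107388225 to 107403206) was at 202, 198 and 191 CPM in control and at 104, 102 and 114 CPM in senescent replicates 1, 2 and 3. The highest senescent value was far below the lowest control value. For *Nqo1*, the log2 fold change came to -0.88 ± 0.06 (SE), a level of 0.542 times that of control cells (adjusted p = 8.82e-06, edgeR). Over the 14 alternatives it lay between -0.99 and -0.81.

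*Gclc* and *Gclm* encode the catalytic and the modifier subunit of glutamate-cysteine ligase, which carries out the first and limiting step of glutathione synthesis. *Gclc* (ENSMUSG00000032350, chromosome 9 from 77754535 to 77794485) was at 27.7, 26.6 and 25.7 CPM in control and at 69.1, 70.6 and 80.6 CPM in senescent replicates 1, 2 and 3. *Gclm* (ENSMUSG00000028124, chromosome 3 from 122245557 to 122269984) was at 45.4, 44.9 and 45.8 CPM in control and at 100.2, 95.7 and 117 CPM in senescent libraries. Both subunits more than doubled, and senescent replicate 3 was the highest library for each. The log2 fold changes were 1.46 for *Gclc* and 1.20 for *Gclm*, each ± 0.08 (SE, adjusted p = 1.51e-06 and 6.21e-06, edgeR). With the GC term, the log2 fold change of *Gclm* was 0.98, just under a doubling. *Gclm* overlaps the processed pseudogene *Gm6061*, which had 145 to 238 counts per library, and the antisense gene *Gm17494*, which had at most 1 count.

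The ratio of *Gclm* to *Gclc* counts was 1.64, 1.69 and 1.78 in control and 1.45, 1.36 and 1.45 in senescent replicates 1, 2 and 3. It was lower in each senescent library, by 0.26 on the log2 scale (difference of -0.26, two-sided exact permutation p = 0.1, adjusted p = 0.1 over the 3 ratios). With the GC term, the log2 fold changes were 1.38 for *Gclc* and 0.98 for *Gclm*, and the ratio itself was not refitted.

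*Txnrd1* encodes the cytosolic thioredoxin reductase, a selenoprotein that keeps thioredoxin reduced. *Txnrd1* (ENSMUSG00000020250, chromosome 10 from 82859206 to 82897724) was at 147, 144 and 148 CPM in control and at 439, 446 and 438 CPM in senescent replicates 1, 2 and 3. It was the most even of the 10 genes in senescent cells, with a coefficient of variation of 0.902%, and senescent replicate 3 did not stand apart. *Txnrd1* rose by 1.59 ± 0.05 on the log2 scale (SE), or 3.02-fold (adjusted p = 9.41e-08, edgeR).

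*Srxn1* encodes sulfiredoxin, which repairs overoxidized peroxiredoxins. *Srxn1* (ENSMUSG00000032802, chromosome 2 from 152105516 to 152111376) was at 61.5, 56.3 and 55.3 CPM in control and at 144, 141 and 159 CPM in senescent replicates 1, 2 and 3. Each senescent library was more than 2 times as high as the highest control library. *Srxn1* rose by 1.36 ± 0.07 on the log2 scale (SE), or 2.56-fold (adjusted p = 1.69e-06, edgeR). This is the gene whose window held the AP-1 motif 2 times, and a part of these copies in its rise was not tested.

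*Sod2* encodes the manganese superoxide dismutase of mitochondria and is known as a target of NF-kB as well. *Sod2* (ENSMUSG00000006818, chromosome 17 from 13007839 to 13018119) was at 33.2, 35.6 and 35 CPM in control and at 47.6, 46.1 and 50.2 CPM in senescent replicates 1, 2 and 3. The groups were separate and the rise was the smallest among the 7 genes that rose. *Sod2* rose by 0.47 ± 0.06 on the log2 scale (SE, adjusted p = 0.000264, edgeR), and it was 0.26 with the GC term (adjusted p = 0.00142, edgeR).

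**Figure D3:**
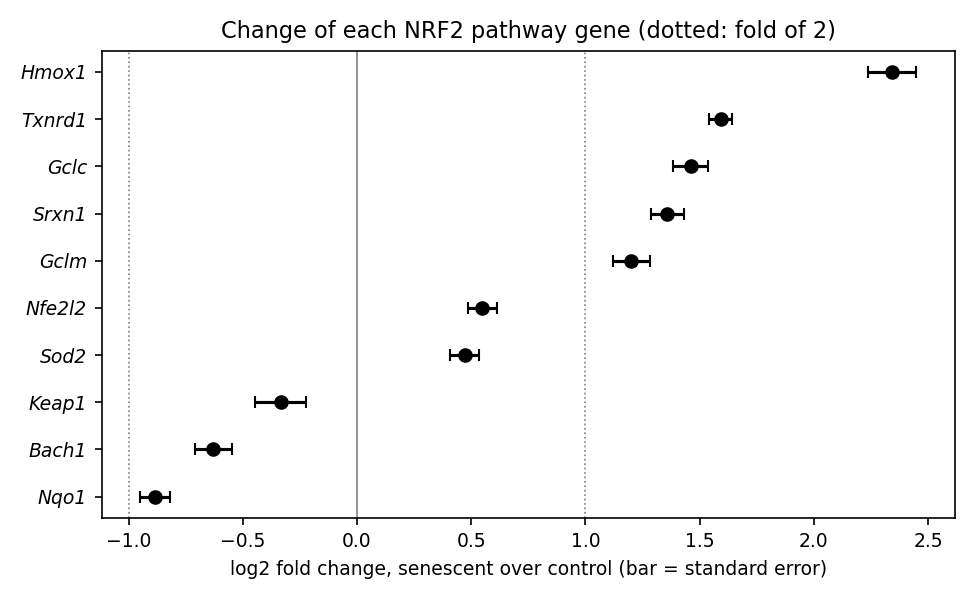
Log2 fold change of senescent over control cells for each of the 10 genes with its standard error, from the edgeR fit over all genes, with dotted lines at a fold of 2. Hmox1, Txnrd1, Gclc, Srxn1 and Gclm lie beyond the upper line, Nfe2l2 and Sod2 between 0 and that line, and Keap1, Bach1 and Nqo1 below 0.

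Among themselves, the 10 genes varied more in senescent than in control libraries. The coefficient of variation was larger in senescent cells for 9 of the 10, all but *Txnrd1*. The share of all genes tested with this pattern was not computed, so it cannot be called particular to the 10 genes. Over all tested genes, senescent replicate 3 also stood apart, by 0.386 and 0.400 against 0.258, as given above. Senescent replicate 3 was the highest senescent library for 6 genes (*Nfe2l2*, *Nqo1*, *Gclc*, *Gclm*, *Srxn1* and *Sod2*) and the lowest for 3 (*Keap1*, *Hmox1* and *Txnrd1*). Thus the senescent library with the least *Hmox1* had the most *Gclc* and *Gclm*, although the 3 genes rose together between the groups. Without senescent replicate 3, the calls of all 10 genes held, that of *Keap1* among them. The calls of 9 of the 10 genes also held in each of the other alternatives run, and the exception was *Keap1*.

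Levels of different genes were set side by side as RPKM, the TMM-scaled CPM per kilobase of the gene length in the table. In control cells, *Nqo1* led with 127 ± 3.48 RPKM (SD, n = 3), followed by *Hmox1* with 65.8 ± 3.33, *Txnrd1* with 42.8 ± 0.602 and *Nfe2l2* with 37.8 ± 0.245. *Srxn1* (20.5 RPKM), *Keap1* (12.6), *Sod2* (9.04), *Gclm* (8.19), *Gclc* (7.80) and *Bach1* (7.24) came next. The 3 values of neighbours in this order did not overlap, although the lowest *Gclm* library (8.10 RPKM) and the highest *Gclc* library (8.09 RPKM) nearly met.

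In senescent cells, *Hmox1* led with 334 ± 44.4 RPKM (SD, n = 3) and *Txnrd1* followed with 129 ± 1.17, ahead of *Nqo1* with 68.7 ± 4.37. *Nqo1* thus moved from the first to the third place. *Nfe2l2* (55.3 RPKM) and *Srxn1* (52.5) overlapped, as did *Gclc* (21.5) and *Gclm* (18.8), so neither pair had an order beyond its spread. *Sod2* (12.5 RPKM) stood above *Keap1* (10.0), the reverse of their order in control cells, and *Bach1* was last in both groups, at 4.68 RPKM in senescent cells.

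**Figure D4:**
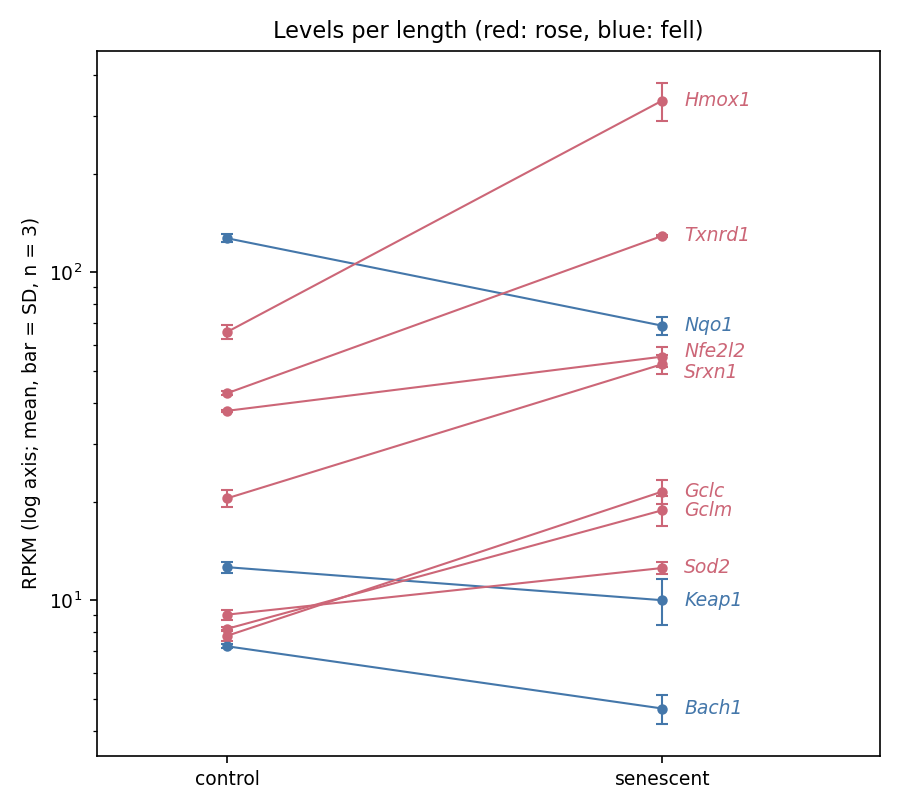
Mean RPKM with its SD (n = 3, log axis) of each of the 10 genes in control and senescent cells, red for genes that rose and blue for genes that fell. Nqo1 drops from the first to the third place, while Hmox1 reaches 334 RPKM, above each of the others.

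The wider pathway was described with a list of 92 further genes in 9 roles, chosen for their textbook functions, of which 87 were tested. The list was made with earlier results of these data known, so its shares below are a description and not independent of these data. At an adjusted p under 0.05 (edgeR), 43 were higher and 31 lower in senescent cells, and 13 did not pass. Together 85.1% were called, against 70.3% of all genes. By direction, the shares of all genes were 36.2% higher and 34.1% lower, and the counts by role below stand beside these shares. With a fold over 2 as well, 20 of the 87 were higher and 7 lower, against 17.7% and 12.3% of all genes. The median log2 fold change of the 87 was 0.17. Where at least 10 counts in every library were required, 15 of 82 were called higher and 6 lower by that fold. *Gsta1*, *Gsta2*, *Gsta3*, *Duox1* and *Duox2* fell below 10 counts in a control library. They could not pass the filter on low counts through control libraries alone, so their direction partly follows from the filter.

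Among the regulators and partners, 7 of 10 tested genes were higher and 0 were lower, so that the share called in either direction was near that of all genes (70.3%). The small MAF proteins, which pair with NRF2 or BACH1 on DNA, were all higher. *Maff* rose from 6.10 ± 0.50 to 126 ± 3.70 CPM (SD, n = 3 in each group), or by 4.37 on the log2 scale. *Mafk* rose from 19.3 ± 1.08 to 55.2 ± 7.57 CPM and *Mafg* from 62.3 ± 2.46 to 89.0 ± 10.4 CPM. *Sqstm1*, whose product p62 binds KEAP1 and carries it to autophagy, rose from 263 ± 8.30 to 572 ± 64.1 CPM. *Cul3*, the scaffold of the ligase that KEAP1 serves, had a log2 fold change of 0.30 (adjusted p = 0.0199, edgeR), which was 0.00 with the GC term (adjusted p = 0.933, edgeR) and lost its call without control replicate 2 or 3 (adjusted p = 0.0618 and 0.0718, edgeR). Without senescent replicate 3 it was 0.20.

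Of 9 tested genes of glutathione synthesis and recycling, 6 were higher and 2 lower. *Slc7a11*, the cystine importer, rose from 4.65 ± 0.309 to 45.2 ± 5.79 CPM (SD, n = 3 in each group), or by 3.28 ± 0.12 on the log2 scale (SE). *Gss*, glutathione synthetase, rose from 31.9 ± 0.610 to 53.0 ± 3.23 CPM. *Gsr*, which recycles oxidized glutathione, changed from 28.4 ± 0.484 to 24.4 ± 0.303 CPM (log2 fold change -0.22, adjusted p = 0.0124, edgeR), and this call did not hold when only library size was used for scaling (-0.14, adjusted p = 0.0766, edgeR) or without control replicate 3 (adjusted p = 0.0503, edgeR). It was also lost with a term for the replicate number, a replicate block (adjusted p = 0.0563, edgeR).

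Glutathione is used by peroxidases and transferases. Of 20 tested genes of this role, 8 were higher and 11 lower, against 36.2% and 34.1% of all genes, with a median log2 fold change of -0.26. The 8 include *Gsta1*, *Gsta2* and *Gsta3*, whose direction partly follows from the filter on low counts. The difference between the roles was not tested. *Gpx1*, the main cytosolic peroxidase, fell from 153 ± 14.1 to 89.9 ± 25.3 CPM (SD, n = 3 per group), although without a filter on low counts the call was lost (adjusted p = 0.0584, edgeR). *Gpx4*, which removes lipid peroxides, fell from 173 ± 14.3 to 121 ± 21.2 CPM. Without senescent replicate 3, the log2 fold changes of *Gpx1* and *Gpx4* were -0.55 and -0.37, against -0.77 and -0.52 with it. *Gstm1* fell from 57.7 ± 0.977 to 48.2 ± 3.73 CPM, and its reads may be shared with similar transferase genes. With the GC term, the log2 fold changes of *Gpx4* and *Gstm1* were -0.22 and -0.15, where they had been -0.52 and -0.26. The largest change in this role by the naming rule was in *Mgst2*, which fell from 24.5 ± 1.62 to 6.45 ± 0.509 CPM.

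In the thioredoxin and peroxiredoxin system, 5 of 14 tested genes were higher and 6 lower, and 0 rose and 2 fell by a fold over 2. *Txn1*, the thioredoxin that *Txnrd1* serves, fell from 229 ± 6.22 to 144 ± 12.2 CPM (SD, n = 3 in each group), a log2 fold change of -0.67 where that of *Txnrd1* was 1.59. *Txnip*, which binds and inhibits thioredoxin, rose from 126 ± 5.24 to 232 ± 3.87 CPM. *Prdx1*, a substrate of sulfiredoxin, rose from 587 ± 22.9 to 865 ± 78.8 CPM and *Prdx6* from 253 ± 1.48 to 433 ± 10.7 CPM. The peroxiredoxins did not move alike. *Prdx2* fell from 246 ± 8.05 to 160 ± 22.7 CPM and *Prdx4* from 99.4 ± 2.96 to 48.6 ± 1.85 CPM. *Prdx3* and *Prdx5* did not pass the test (adjusted p = 0.108 and 0.398, edgeR). The log2 fold change of *Prdx1* was 0.56, and 0.35 with the GC term. *Sesn1* fell from 24.0 ± 0.726 to 10.8 ± 0.549 CPM.

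Of 6 tested genes that supply NADPH, the electron donor of NQO1 and of both reductase systems, 4 were lower and 1 was higher. *G6pdx*, which opens the pentose phosphate pathway, fell from 178 ± 3.89 to 109 ± 3.74 CPM (SD, n = 3 per group). *Tkt* fell from 241 ± 17.4 to 126 ± 28.9 CPM, a log2 fold change of -0.93, which was -0.75 without senescent replicate 3. *Pgd* and *Me1* had log2 fold changes of -0.31 and 0.17 with adjusted p of 0.0283 and 0.0465 (edgeR). Their calls were lost in 6 and 8 of the 14 alternatives, among them those without control replicate 1, 2 or 3 for both genes and without senescent replicate 2 for *Me1*. Without senescent replicate 3 the log2 fold change of *Pgd* was -0.19, and with the GC term that of *Me1* was 0.03.

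*Sod2* was 1 of 3 superoxide dismutase genes, and these did not move alike. *Sod3*, the secreted form, rose from 167 ± 8.77 to 350 ± 48.0 CPM (SD, n = 3 per group), while *Sod1*, the cytosolic form, fell from 97.9 ± 3.75 to 75.4 ± 3.00 CPM. *Cat*, the catalase that removes the hydrogen peroxide these enzymes make, fell from 250 ± 3.60 to 131 ± 1.49 CPM.

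Around *Hmox1*, 2 of 7 tested genes of heme and iron handling were higher and 4 lower. *Fth1*, the ferritin heavy chain that stores the iron heme oxygenase frees, rose from 1898 ± 4.43 to 5014 ± 150.4 CPM (SD, n = 3 in each group), a log2 fold change of 1.40. *Ftl1*, the light chain, rose from 903 ± 68.8 to 1444 ± 414 CPM. Its senescent replicates 1, 2 and 3 were at 1607, 1753 and 973 CPM, and the highest control library was at 963 CPM. The *Ftl1* call was lost without control replicate 1 (adjusted p = 0.0567, edgeR) and without a filter on low counts (adjusted p = 0.0967, edgeR). Ferritin genes have pseudogene copies, so their reads are uncertain. *Slc40a1*, the iron exporter ferroportin, fell from 6.15 ± 1.17 to 2.31 ± 0.278 CPM. *Blvrb*, a biliverdin reductase, was at 9.30 ± 1.20 and 9.46 ± 2.11 CPM and did not pass the test (adjusted p = 0.922, edgeR). The other biliverdin reductase gene of the list, *Blvra*, fell from 32.7 ± 1.10 to 13.2 ± 0.454 CPM (log2 fold change -1.32, adjusted p = 1.31e-06, edgeR).

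Of 12 tested genes of detoxification and export, the role that *Nqo1* shares, 9 were higher and 2 lower. *Ephx1*, the microsomal epoxide hydrolase, rose from 146 ± 3.99 to 339 ± 16.2 CPM (SD, n = 3 per group). *Aldh3a1*, an aldehyde dehydrogenase, rose from 0.332 ± 0.124 to 7.12 ± 0.916 CPM. *Nox4*, an NADPH oxidase that makes hydrogen peroxide, rose from 17.0 ± 0.691 to 40.0 ± 5.89 CPM, and of 5 tested NADPH oxidase genes 4 were higher and 0 lower. The 4 include *Duox1* and *Duox2*, whose direction partly follows from the filter on low counts.

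**Figure D5:**
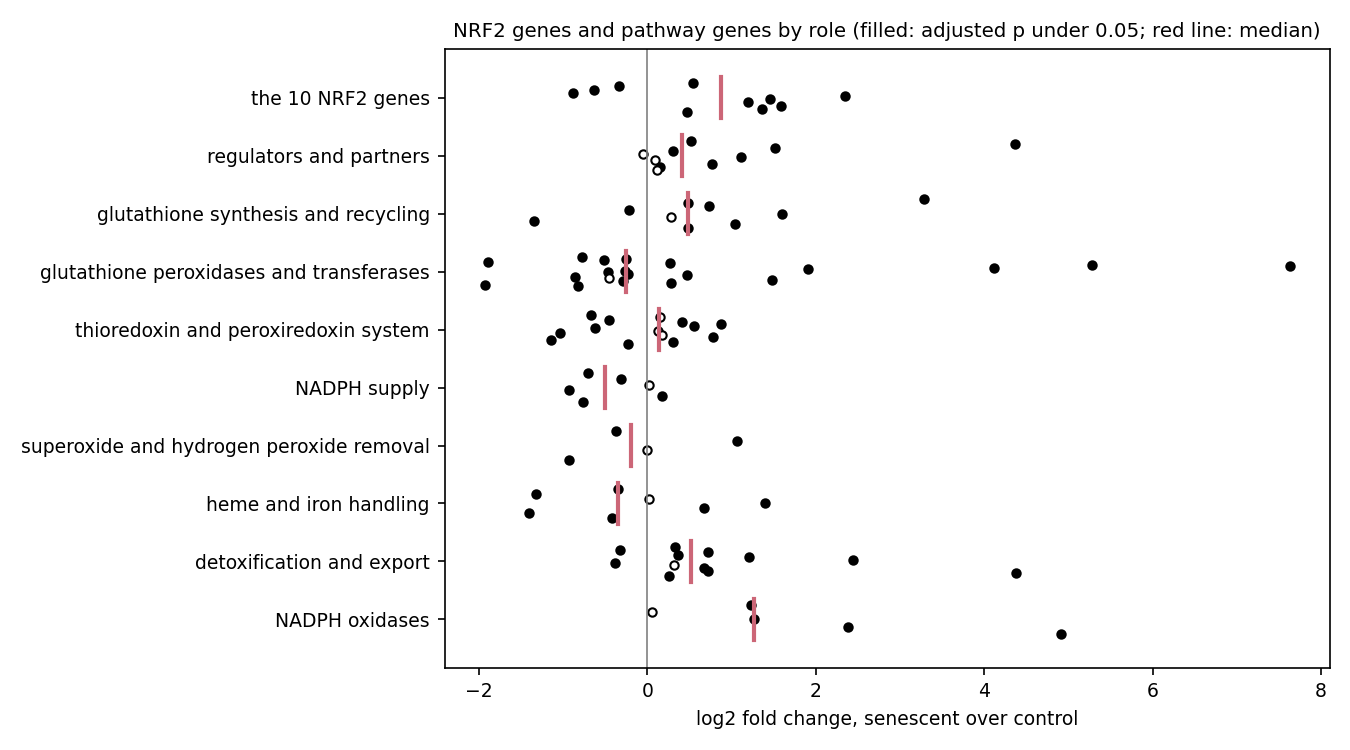
Log2 fold change of senescent over control cells for the 10 NRF2 genes and the 87 other tested pathway genes by role (1 point a gene, filled at an adjusted p under 0.05 by edgeR, red line at the median of a role). The 7 called regulators lie above 0, the 4 NADPH supply genes called lower lie below it, and the point farthest to the right is a gene with 0 counts in the control libraries, whose fitted value depends on the prior count.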

How the data were processed

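RNA-seq libraries of polyadenylated RNA (200 ng of total RNA, stranded kit, paired reads of 100 bases) were mapped by the authors with STAR, run within MAPRSeq, and counted on genes with Subread (mm10 and Subread as in the submitters' processing notes). The deposited values are raw counts per gene, without normalization. The strand setting, how reads with more than one match were treated and the Subread version are not given in the sources used here, so genes with copies or overlaps are uncertain. A gene length per gene was deposited beside the counts and used for RPKM.

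From these counts, genes were kept with filterByExpr (17589 genes), scaled by TMM and compared by the robust quasi-likelihood test of edgeR 4.0.16 (R 4.3.3), two-sided, with the group as the only term and Benjamini-Hochberg adjustment over all genes tested. A gene was called at an adjusted p under 0.05, and a fold over 2 was added as a second rule. Standard errors are the log2 fold change divided by the square root of the F statistic. Group and replicate came from the sample labels.

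The members and lists were chosen with earlier results of these data known. Named were the 10 members, 27 pathway genes set for their textbook place, and per role the gene with the largest change among those with an adjusted p under 0.05, a mean of at least 100 counts and no overlap. *Prdx2*, *Prdx3*, *Prdx4*, *Prdx5* and *Blvra* were added after their values had been seen, to complete gene families. The 31 named genes followed through the alternatives leave them out.

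Alternatives were RLE scaling, library size alone, no filter, a filter at 10 counts in each library, DESeq2 1.42.0, the exact test of edgeR, a replicate term, each library left out, and a GC term per library, chosen after seeing the data (loess on the GC content of the longest GENCODE M21 transcript). On simulated counts with known changes, the quasi-likelihood test recovered 50 of 50 genes at 2-fold and 42 of 50 at 1.5-fold, with 4 false calls among 17250 genes. The simulation gave every gene the same dispersion, changed few genes and held no library that stood apart. Its figures therefore need not hold for these data, where 70.3% of genes were called.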

Additional observations from a re-analysis of the deposited data

How the results depend on the processing

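The 7 members called higher were 7 under each of the 14 alternatives, and those called lower were 2 or 3, the difference being *Keap1*. Its log2 fold change was -0.26 with library size alone (adjusted p = 0.0709, edgeR) and -0.29 with at least 10 counts in every library (adjusted p = 0.0582, edgeR), where the call was lost, and it lay between -0.43 and -0.20 when 1 library was left out. No other member changed its call at an adjusted p under 0.05 or its direction. The members higher with a fold over 2 were 4 in place of 5 with the GC term, where *Gclm* was at 0.98. Among the other pathway genes, 39 to 49 were called higher and 26 to 31 lower. Of the 31 pathway genes named, 7 lost a call or turned direction under some alternative (*Cul3*, *Gsr*, *Gpx1*, *Pgd*, *Me1*, *Blvrb* and *Ftl1*), of which *Blvrb*, which was not called, lay between -0.0894 and 0.206 with a library left out and was below 0 in 3 of these 6 fits. The causes were not tested.

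A replicate block gave log2 fold changes of 2.33 for *Hmox1*, 0.55 for *Nfe2l2* and -0.89 for *Nqo1*, and among the named genes it ended the calls of *Gsr* and *Me1* alone. The correlations of the deviations of same-numbered libraries from their group means were -0.15, 0.14 and -0.12 for replicates 1, 2 and 3. With 3 libraries a group, the deviations within a group must cancel. These correlations therefore cannot say whether the number pairs the samples. Over all genes, the block gave 11624 calls, against 12365 without it. Calls with a fold over 2 numbered 5280 of all genes, and 3479 under the stricter filter, which tested 15205 genes. With 3 samples a group, an exact permutation test of a single value cannot go below 0.1.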

Other observations

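The 4 listed alpha class glutathione transferases are detoxifying enzymes known as inducible NRF2 targets. Their CPM was higher in every senescent than in every control library. Of all genes tested, 75.3% did not overlap between the groups, in one direction or the other. *Gsta1*, *Gsta2* and *Gsta3* had at most 10 counts in a control library, and their direction partly follows from the filter on low counts, as given above. *Gsta2* had 0 counts in each control library but 24, 32 and 29 in senescent replicates 1, 2 and 3, at least 6.88-fold higher against a floor of 3 counts per library. *Gsta1* had 0, 0 and 1 counts in control and 18, 28 and 24 counts in senescent libraries. *Gsta3* had 4, 10 and 6 counts in control and 113, 170 and 205 counts in senescent libraries, or 4.11 ± 0.23 higher on the log2 scale (SE). *Gsta4* rose from 1.27 ± 0.0499 to 4.76 ± 0.391 CPM (SD, n = 3 per group). *Gsta1* and *Gsta2* are near-identical copies, so their reads cannot be assigned to one of them with certainty. These 4 genes were named after their values had been seen.

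The dual oxidases, which release hydrogen peroxide outside the cell, were low in control and higher in senescent cells. As given above, their direction partly follows from the filter on low counts. *Duox2* had 5, 0 and 2 counts in control and 63, 139 and 106 counts in senescent replicates 1, 2 and 3, and *Duox1* had 15, 18 and 5 against 73, 113 and 88 counts. *Cybb*, which encodes the phagocyte oxidase subunit, had 0 counts in each control library against 2, 7 and 5 in senescent replicates 1, 2 and 3, too few to enter the test. These 3 genes were also named after their values had been seen.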
